A study of Mus musculus with 8 samples.

Results

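The genes described here are 38 that act in glycolysis, in the pentose phosphate pathway or in the response to low oxygen. They were taken by symbol from a list drawn up for this purpose, and all 38 were found among the 22869 gene symbols of the deposited count table, with the row of the largest total kept where a symbol had several. All 38 also passed the filter on low counts, which left 14940 symbols for testing. By role they are 5 transporters of glucose or lactate, 18 glycolytic enzymes, 4 pyruvate dehydrogenase kinases, 4 pentose phosphate enzymes and 7 genes that low oxygen induces. Total RNA was sequenced from atrioventricular (AV) cushions, the swellings from which heart valves form, and from ventricles. All samples came from C57BL/6 mouse embryos at E12.5, with 2 libraries for each tissue of each genotype, which makes 4 groups. The mutants carry the genotype label NfatC1+/-; KLF2fl/fl, in which both Klf2 alleles are floxed. The labels name no recombinase and no promoter that drives it, and do not tell whether the NfatC1+/- allele brings in a recombinase or is a lost copy, so the groups may differ in an Nfatc1 allele along with Klf2. The controls are called wild type in the sample labels, while the design text lists KLF2 fl/fl mice. Nor do the labels tell whether libraries of a group are from different embryos, or whether embryos were pooled, so a p-value here reflects only how far these samples spread, and that spread may be technical.

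Glycolysis splits glucose into pyruvate and yields ATP without oxygen, lactate dehydrogenase turns the pyruvate into lactate, and the pyruvate dehydrogenase kinases hold pyruvate back from the mitochondria. The pentose phosphate pathway draws on the same glucose to make NADPH and the ribose of nucleotides. When oxygen is low, hypoxia-inducible factors are no longer marked for degradation and switch on glycolytic genes, glucose transporters and the other induced genes of the list. The embryonic heart is known to rely on glycolysis and lactate early, and to turn towards mitochondrial oxidation as its muscle matures.

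With 1 row kept per symbol the libraries held between 18955733 and 26579215 counts, of which the 38 genes took between 0.797% and 1.16%. Levels are in CPM (counts over the scaled library size), where a level of 1 CPM stood for no fewer than 18.7 reads. Klf2 was at 17.3 and 12.9 CPM in wild type cushions and 1.96 and 0.651 CPM in mutant cushions, and at 11.7 and 9.19 CPM in wild type and 0.736 and 0.625 CPM in mutant ventricles, so that every mutant library lay below every wild type library. Nfatc1 was at 35.9 and 22.1 CPM in wild type and 24.9 and 15.2 CPM in mutant cushions (log2 fold change -0.53, adjusted p = 0.718), and at 18.5 and 7.87 CPM against 17.4 and 6.83 CPM in ventricles (-0.12, adjusted p = 0.998), with overlap in both tissues. Markers of cushion mesenchyme summed to between 8233 and 18610 CPM in the 4 cushion libraries and to between 1855 and 4815 CPM in the 4 ventricle libraries. Cardiomyocyte markers summed to between 32450 and 49570 CPM in cushions and to between 47840 and 106900 CPM in ventricles, so the cushion libraries held much heart muscle RNA. In both ventricle groups the sum was larger in replicate 1 (106900 and 97280 CPM) than in replicate 2 (47840 and 49260 CPM). Ttn alone was at 70720 and 61900 CPM in replicate 1 and at 15180 and 10600 CPM in replicate 2. Other markers of the list went either way. Myl2 was higher in replicate 2 (8311 and 9059 against 6839 and 6746 CPM). Myh7 was higher in replicate 1 (11270 and 10770 against 6070 and 8345 CPM). No marker of these or of the endothelial, epicardial, erythroid, leukocyte and liver lists was at 0 in all libraries. In bulk tissue, fewer cells of a type and less RNA per cell cannot be told apart.

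The hypoxia-inducible factors are known to bind DNA at the letters ACGTG or GCGTG. The 250 bases before the annotated gene start were therefore searched for both on both strands, where they read CACGT and CACGC on the opposite strand. ACGTG overlaps CACGTG, the E-box of other factors, and then matches on both strands. RefSeq (GRCm38.p6) gave 49 such windows for 35 of the 38 genes, and none for Ndrg1, Slc2a3 and Slc2a4. ACGTG stood in 40.8% of these windows and in 16.6% of all 32851 windows, and either motif in 79.6% and 38.6%. The windows of the listed genes were also richer in G and C, with a median of 60.4% against 52.4%. ACGTG was in 6 of the 6 windows of hypoxia-induced genes and in 0 of the 5 windows of pentose phosphate genes. It was also in 3 of the 3 windows of transporter genes. The median G and C content was 69.8% in the hypoxia-induced, 59.6% in the pentose phosphate and 73.6% in the transporter windows. A match describes the letters and is not a measured binding site. The windows below belong to 3 hypoxia-induced genes and 1 pentose phosphate gene that were higher in cushions, and to 1 lactate dehydrogenase gene that was lower there, with each motif in capitals.
Egln3 (chr12:54203875-54204124, minus strand): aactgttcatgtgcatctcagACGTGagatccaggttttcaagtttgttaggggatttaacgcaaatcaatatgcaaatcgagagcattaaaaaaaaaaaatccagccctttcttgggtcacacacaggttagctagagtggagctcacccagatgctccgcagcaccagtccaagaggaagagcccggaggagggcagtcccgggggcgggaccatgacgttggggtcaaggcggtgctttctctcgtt
P4ha1 (chr10:59323046-59323295, plus strand): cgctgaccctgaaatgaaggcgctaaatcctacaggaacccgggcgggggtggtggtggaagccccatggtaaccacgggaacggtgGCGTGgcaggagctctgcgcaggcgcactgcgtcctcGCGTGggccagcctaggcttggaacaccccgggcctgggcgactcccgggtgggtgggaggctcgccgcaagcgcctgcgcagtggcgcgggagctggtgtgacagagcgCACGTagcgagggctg
Ddit4 (chr10:59951771-59952020, minus strand): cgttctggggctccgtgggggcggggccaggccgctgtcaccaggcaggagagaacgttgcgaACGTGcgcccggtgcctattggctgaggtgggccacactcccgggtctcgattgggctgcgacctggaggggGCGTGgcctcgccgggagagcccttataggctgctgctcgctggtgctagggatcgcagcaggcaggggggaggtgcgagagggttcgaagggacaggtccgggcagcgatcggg
Tkt (chr14:30548881-30549130, plus strand): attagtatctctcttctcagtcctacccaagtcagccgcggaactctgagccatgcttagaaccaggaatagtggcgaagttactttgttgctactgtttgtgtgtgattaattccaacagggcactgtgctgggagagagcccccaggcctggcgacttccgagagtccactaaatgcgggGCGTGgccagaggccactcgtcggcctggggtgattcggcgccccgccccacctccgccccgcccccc
Ldhb (chr6:142507958-142508207, minus strand): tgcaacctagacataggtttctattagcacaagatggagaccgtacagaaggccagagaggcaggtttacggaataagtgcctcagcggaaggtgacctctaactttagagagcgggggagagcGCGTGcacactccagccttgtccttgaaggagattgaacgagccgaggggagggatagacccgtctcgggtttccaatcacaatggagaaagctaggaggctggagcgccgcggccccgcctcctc
The Egln3 window has ACGTG, starting 229 bases before the gene start. The P4ha1 window has GCGTG at 163 and 126 bases and CACGT at 16 bases before the start, and the Ddit4 window has ACGTG at 187 and GCGTG at 115 bases. Tkt and Ldhb hold GCGTG only, at 68 and 126 bases, although the RNA of the former was higher and that of the latter lower in cushions. ACGTG also stood in the windows of Slc16a1 (as CACGTG) and Pdk3, which are not printed. The RNA of both was lower in wild type cushions (log2 fold change -1.11 and -1.06).

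Per kilobase of transcript the highest levels in wild type cushions among the glycolytic enzymes were those of Aldoa, an aldolase, and Ldha, the muscle form of lactate dehydrogenase, at 711.6 and 710.1 CPM per kb. Tpi1, which encodes triosephosphate isomerase, followed at 476.1 CPM per kb and Pkm2, the pyruvate kinase gene of muscle and embryo, at 405.5 CPM per kb. The other 14 enzymes lay between 3.06 and 138.8 CPM per kb. Gapdh, whose enzyme acts between Tpi1 and Pgk1 in the pathway, was the lowest of the 18, at 9.11 and 11.0 CPM in the libraries, or 3.06 CPM per kb. Of the windows of 50 bases in its longest transcript, 27.8% also occur in other genes, 208 of them pseudogenes. The share was 72.2% for Eno1, 68.0% for Pgk1, 41.5% for Pgam1 and 34.4% for Pkm2 among the enzymes, and 62.5% for Bnip3 among the hypoxia-induced genes. For the lactate dehydrogenases it was 27.0% for Ldhb and 16.65% for Ldha. How the authors counted reads that fit several places is not given in the sources used here, so the counts of these genes are uncertain. The part of shared sequence in their levels was not tested.

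**Figure D1:**
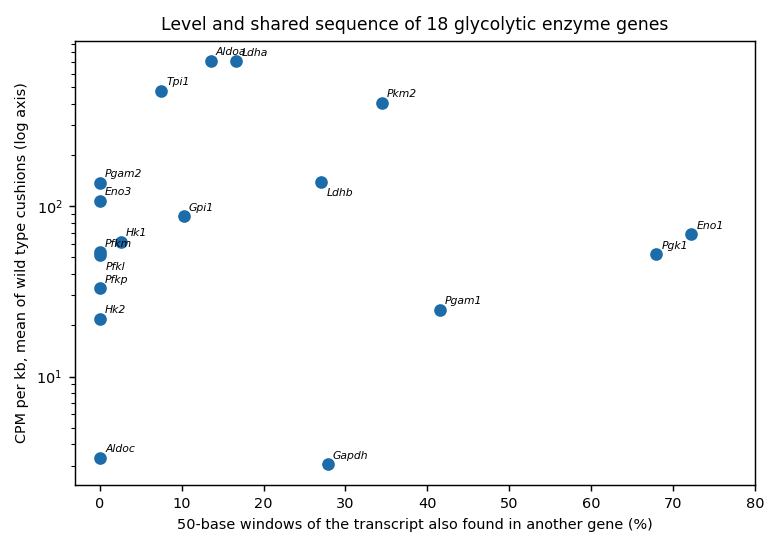
Mean level of the 18 glycolytic enzyme genes in wild type cushions (CPM per kb of transcript, log axis) against the percent of 50-base windows of the transcript that also occur in another gene, 1 point per gene. Gapdh (3.06 CPM per kb, 27.8% of windows shared) and Aldoc (3.34 CPM per kb, 0%) lie at the bottom. Eno1 and Pgk1 share a larger part of their windows and lie higher, with 9 and 5 other genes sharing against 218 for Gapdh.

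The comparison of cushion with ventricle asks how the glucose genes differ between the AV region and the chamber wall. Tkt, G6pdx, glucose transporters and 4 hypoxia-induced genes were higher in wild type cushions, and Slc16a1, Pdk3 and Ldhb were lower. With edgeR's quasi-likelihood test at an adjusted p of 0.05, 11 of the 38 genes passed in wild type, 8 higher and 3 lower. That is 28.9% of the genes, beside 23.11% of all genes tested (12.46% higher and 10.65% lower), so the count as a whole was near the background. In mutants 5 passed, 4 higher and 1 lower, or 13.2% beside 9.42% of all genes (6.16% higher and 3.26% lower). All 5 had also passed in wild type in the same direction, where 5.09% of all genes were called higher and 2.36% lower in both genotypes, from libraries that the comparisons do not share. They are Egln3, P4ha1, Ndrg1 and Ddit4, which were higher, and Ldhb, which was lower. Without wild type ventricle replicate 2 only Tkt passed in wild type, and without wild type cushion replicate 1 or 2 the counts were 4 and 6. In mutants P4ha1 alone passed without mutant cushion replicate 1 or mutant ventricle replicate 2, and 8 passed without mutant cushion replicate 2. DESeq2 called 12 in mutants, beside 12.1% of all genes, which adds Tkt, Ankrd37, Pdk3, Hk1, Gpi1, Gapdh and Eno3.

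Replicate numbers paired the libraries in the data, and with the number as a block the counts rose to 18 in wild type (10 higher and 8 lower, beside 41.4% of all genes, 21.2% higher and 20.1% lower) and to 20 in mutants (8 higher and 12 lower, beside 23.9% of all genes, 13.4% higher and 10.5% lower). In both genotypes at the same time 8 were then higher and 5 lower, beside 9.77% and 7.30% of all genes. In wild type 13 of the 38 genes had both cushion libraries above both ventricle libraries and 14 had both below, where 33.5% and 31.8% of all genes did. In mutants these were 9 and 24, where 28.9% and 24.2% of all genes did. Over both genotypes 8 genes were separated upwards and 13 downwards in each (17.7% and 15.5% of all genes). Beside these counts, 10 of 12 cardiomyocyte markers were below 0 in wild type and 3 were called lower. Of the 10 cushion mesenchyme markers 9 were above 0 and 4 were called higher, and all 10 erythroid markers were below 0 with 0 called (sums of 821.6 to 3746 CPM in cushions and 2453 to 8124 CPM in ventricles). With the block 6 cardiomyocyte, 9 mesenchyme and 8 erythroid markers were called in those directions. Endothelial and endocardial markers summed to 1382 to 1708 CPM in cushions and 1778 to 2325 CPM in ventricles. In wild type 5 of the 8 were below 0, with 2 called lower. All 5 epicardial markers were below 0 with 1 called (3 with the block). Of the 6 leukocyte markers 5 were above 0 with 1 called (2 with the block). Liver markers summed to 9.44 to 15.1 CPM in wild type cushions and 0.748 to 1.85 CPM in wild type ventricles. The part of the cell mixture in the differences below was not tested.

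**Figure D2:**
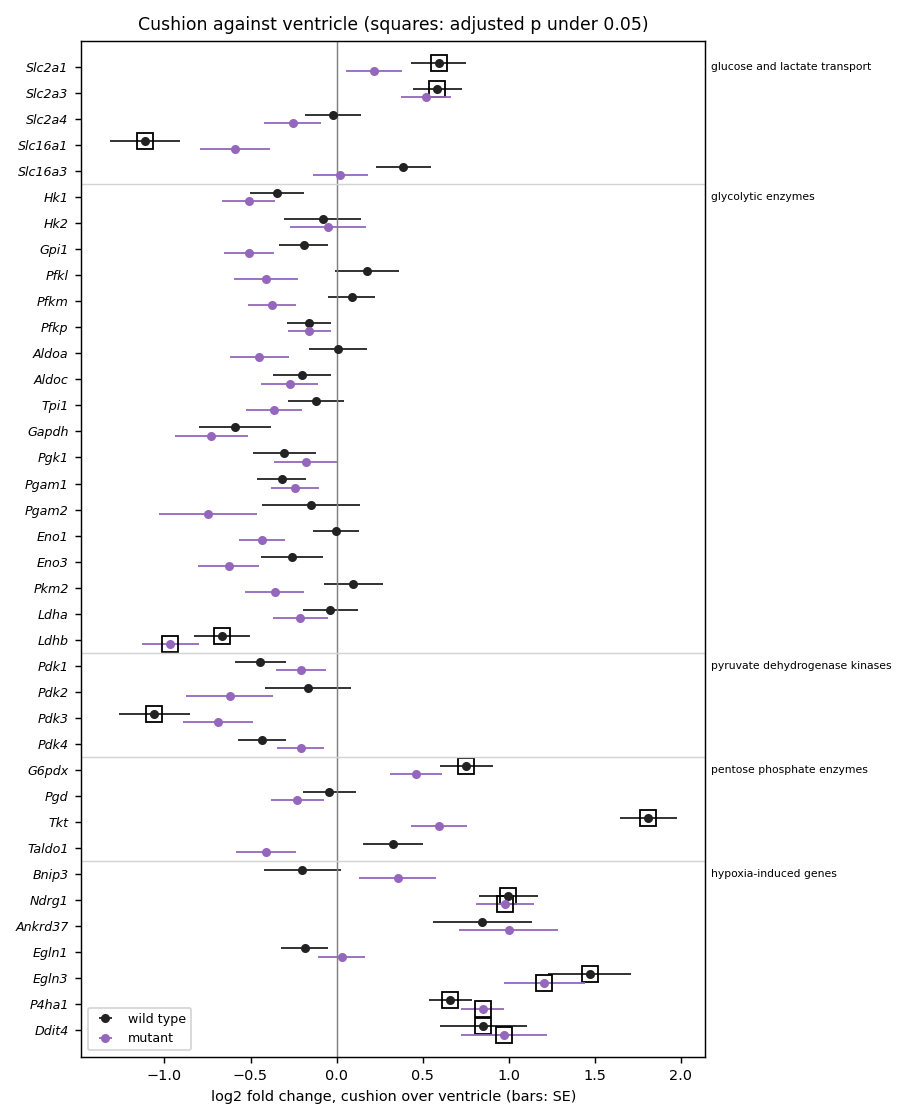
Log2 fold change of cushion over ventricle for the 38 genes by role, in wild type (black) and mutants (purple), with bars of 1 SE and squares where the adjusted p was under 0.05 (edgeR, 2 libraries per group). Squares lie right of 0 for Egln3, Ndrg1, P4ha1 and Ddit4 and left of 0 for Ldhb in both genotypes, and for Tkt at 1.81 in wild type only.

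Among the transporters, the glucose carriers Slc2a1 and Slc2a3 were higher and the lactate carrier Slc16a1 was lower in wild type cushions, and 0 of the 5 passed in mutants (2 with the block). Slc2a1, the basal glucose transporter, was at 264.2 and 280.9 CPM in wild type cushions and at 191.9 and 169.6 CPM in wild type ventricles, and at 264.8 and 201.4 CPM in mutant cushions and 190.4 and 210.4 CPM in mutant ventricles. The groups were apart in wild type (log2 fold change 0.59 ± 0.16 SE, adjusted p = 0.0316) and overlapped in mutants (0.22 ± 0.16 SE, adjusted p = 0.456). Slc2a3, a transporter of high affinity, was at 112.3 and 100.9 CPM against 76.4 and 65.5 CPM in wild type, and at 146.8 and 120.9 CPM against 93.3 and 93.3 CPM in mutants. All 4 cushion libraries lay above all 4 ventricle libraries for this gene. Its log2 fold change was 0.59 ± 0.14 SE in wild type (adjusted p = 0.0226) and 0.52 ± 0.14 SE in mutants (adjusted p = 0.0576, and 0.00306 with the block).

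Slc2a4, the insulin-responsive carrier of muscle, lay between 19.5 and 26.8 CPM in all 8 libraries and was not called. Slc16a1, which moves lactate and pyruvate in either direction, was at 179.6 and 209.2 CPM in wild type cushions and 381.4 and 459.9 CPM in wild type ventricles. In mutants it was at 207.7 and 312.0 CPM in cushions and 377.5 and 405.2 CPM in ventricles. No cushion library reached the lowest ventricle library. The log2 fold change was -1.11 ± 0.21 SE in wild type (adjusted p = 0.00778) and -0.59 ± 0.20 SE in mutants (adjusted p = 0.111, and 0.00300 with the block). Slc16a3, known as a lactate exporter of glycolytic cells, was at 132.2 and 123.1 CPM against 101.6 and 93.5 CPM in wild type and did not pass (0.39 ± 0.16 SE, adjusted p = 0.110, and 0.0347 with the block). In mutants its libraries overlapped, at 132.1 and 109.1 CPM in cushions and 104.2 and 133.5 CPM in ventricles. The calls of Slc2a1 and Slc2a3 ended without either wild type cushion library or wild type ventricle replicate 2 (adjusted p from 0.0651 to 0.176), that of Slc2a1 also without wild type ventricle replicate 1 (0.0602), and that of Slc16a1 without wild type cushion replicate 1 (0.0535) or wild type ventricle replicate 2 (0.0742).

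Of the 18 glycolytic enzymes only Ldhb passed between the tissues in edgeR. In wild type 4 lay above 0 and 14 below, and their median log2 fold change was -0.16 beside 0.01 for all genes (-0.36 with the correction for GC content and length described next). In mutants all 18 lay below 0, with a median of -0.39 (-0.21 without mutant ventricle replicate 2), and again Ldhb alone passed in edgeR, while DESeq2 called 5 lower. With the block 4 of the 18 were called lower in wild type (Hk1, Gapdh, Pgam1 and Ldhb), beside 20.1% of all genes. In mutants 9 were (Hk1, Gpi1, Pfkm, Aldoa, Gapdh, Pgam2, Eno1, Eno3 and Ldhb), beside 10.5% of all genes. With a correction for GC content and transcript length together with the block, 15 were called lower in wild type and 13 in mutants, and 0 higher. Of all genes 41.2% were then called in wild type (16.2% higher and 25.0% lower) and 31.7% in mutants (12.3% higher and 19.3% lower). Pfkl, Pfkm, Aldoa and Pkm2, at 0.18, 0.09, 0.01 and 0.10 in wild type without that correction, were then at -0.29, -0.25, -0.28 and -0.31. The direction of these 4 genes in wild type thus depended on the scaling.

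Ldhb encodes the heart form of lactate dehydrogenase. It was at 177.9 and 184.0 CPM in wild type cushions and 277.3 and 297.0 CPM in wild type ventricles, and at 144.5 and 180.1 CPM in mutant cushions and 279.2 and 355.2 CPM in mutant ventricles. The tissues did not overlap in either genotype. The log2 fold change was -0.67 ± 0.16 SE in wild type (adjusted p = 0.0228) and -0.97 ± 0.17 SE in mutants (adjusted p = 0.0108). The wild type call ended without any 1 of the 4 wild type libraries (adjusted p from 0.0608 to 0.126), and the mutant call without mutant cushion replicate 1 (0.0943) or mutant ventricle replicate 2 (0.0607). Ldha, its partner, was at 1324 and 1254 CPM against 1256 and 1388 CPM in wild type and at 1386 and 1321 CPM against 1409 and 1726 CPM in mutants, with log2 fold changes of -0.04 and -0.21.

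Hexokinases trap glucose in the cell. Hk1 was at 274.9 and 254.5 CPM in wild type cushions and 378.1 and 294.8 CPM in wild type ventricles, and at 242.6 and 243.5 CPM against 366.9 and 325.6 CPM in mutants. Every ventricle library was above every cushion library, yet the log2 fold changes of -0.35 and -0.51 did not pass in edgeR without the block (adjusted p = 0.135 and 0.0766, and 0.0349 and 0.00661 with the block). In DESeq2 the value in mutants passed (adjusted p = 0.0372). Hk2, the inducible form, was at 146.5 and 94.8 CPM against 138.6 and 116.6 CPM in wild type and at 153.0 and 123.2 CPM against 157.1 and 128.6 CPM in mutants, where the libraries of each group spread more than the tissues.

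The 3 phosphofructokinases, which set the pace of glycolysis, lay close together across libraries. Pfkl ranged from 146.8 to 253.9 CPM, Pfkm from 127.2 to 182.4 CPM and Pfkp from 283.4 to 383.6 CPM, each with its highest value in mutant ventricle replicate 2. That library was also the highest of the 8 for Gpi1, Aldoa, Aldoc, Tpi1, Gapdh, Pgk1, Pgam1, Pgam2, Eno1, Eno3, Pkm2, Ldha and Ldhb. In it the 18 enzymes summed to 8694 CPM, against 6012 to 6990 CPM in the other 7 libraries. Without this library P4ha1 alone of the 38 genes passed the tissue comparison in mutants.

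At the lower steps, Aldoa was at 1070 and 1134 CPM in wild type cushions and 1094 and 1099 CPM in wild type ventricles, and at 1037 and 986.7 CPM against 1185 and 1576 CPM in mutants. Aldoc, the brain form, was at 9.06 to 12.46 CPM in cushions and 9.87 to 15.4 CPM in ventricles. Among the phosphoglycerate mutases Pgam1 was at 43.5 to 52.8 CPM in cushions and 49.0 to 62.4 CPM in ventricles, and Pgam2, the muscle form, at 82.0 to 142.3 CPM and 119.4 to 194.3 CPM. Of the enolases Eno1 was at 116.0 to 142.6 CPM in cushions and 129.9 to 173.9 CPM in ventricles, and Eno3, the muscle form, at 144.0 to 186.3 CPM and 187.1 to 269.0 CPM. For Eno3 no cushion library reached the lowest ventricle library, and its log2 fold changes of -0.26 in wild type and -0.63 in mutants had adjusted p = 0.319 and 0.0623 (0.0690 and 9.32e-04 with the block, and 0.0221 in mutants in DESeq2). Gapdh was at 9.11 and 11.0 CPM against 15.4 and 14.9 CPM in wild type and at 8.53 and 9.90 CPM against 12.6 and 18.0 CPM in mutants, and its log2 fold changes, -0.59 and -0.73, passed in edgeR with the block only (adjusted p = 0.0129 and 0.00718), and in mutants in DESeq2 (adjusted p = 0.0378).

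The pyruvate dehydrogenase kinases switch off the entry of pyruvate into the mitochondria. All 4 lay below 0 in both genotypes, and their median was -0.44 in wild type and -0.42 in mutants (log2 fold change). Pdk3 was at 152.9 and 145.7 CPM in wild type cushions and 285.1 and 337.0 CPM in wild type ventricles, and at 143.9 and 223.8 CPM against 309.6 and 284.2 CPM in mutants. Cushion and ventricle libraries did not overlap. It was lower in wild type cushions by -1.06 ± 0.21 SE on the log2 scale (adjusted p = 0.00928), and in mutants the value was -0.69 ± 0.20 SE (adjusted p = 0.0699, 0.00667 with the block and 0.0230 in DESeq2). The wild type call ended without wild type cushion replicate 2 (0.0556) or wild type ventricle replicate 2 (0.0824). Pdk1, which hypoxia-inducible factors are known to induce, was at 394.5 and 339.7 CPM against 465.6 and 532.9 CPM in wild type (-0.44 ± 0.15 SE, adjusted p = 0.0605, 0.0142 with the block and 0.0402 in DESeq2). In mutants it was at 452.0 and 475.4 CPM against 506.0 and 564.5 CPM. Pdk2 lay between 6.60 and 16.1 CPM over all libraries, and passed in mutants with the block only (-0.62, adjusted p = 0.166, and 0.0275 with it). Pdk4, a kinase induced by fasting, was at 40.6 to 53.5 CPM in cushions and 54.3 to 58.0 CPM in ventricles (-0.43 in wild type, adjusted p = 0.0531, and 0.0106 with the block).

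Within each step the share of an isozyme was taken from the levels per kilobase, for 13 shares. Ldhb made up 12.7% to 17.0% of Ldha and Ldhb in cushions and 21.6% to 23.5% in ventricles. Slc16a1 was 57.1% to 73.7% of Slc16a1 and Slc16a3 in cushions and 74.8% to 82.8% in ventricles. Among the 4 kinases Pdk3 took 39.4% to 49.0% in cushions and 50.9% to 56.0% in ventricles, and Pdk1 took 42.5% to 50.5% and 36.1% to 41.2%. For these 4 shares all cushion libraries lay on 1 side of all ventricle libraries, with p = 0.0556 in a two-sided exact permutation test within genotype, the smallest that this design allows, and adjusted p = 0.181 over the 13 shares. The shares of hexokinase, phosphofructokinase, aldolase, mutase, enolase and glucose transporter isozymes overlapped between the tissues (p from 0.111 to 0.944, exact permutation test).

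**Figure D3:**
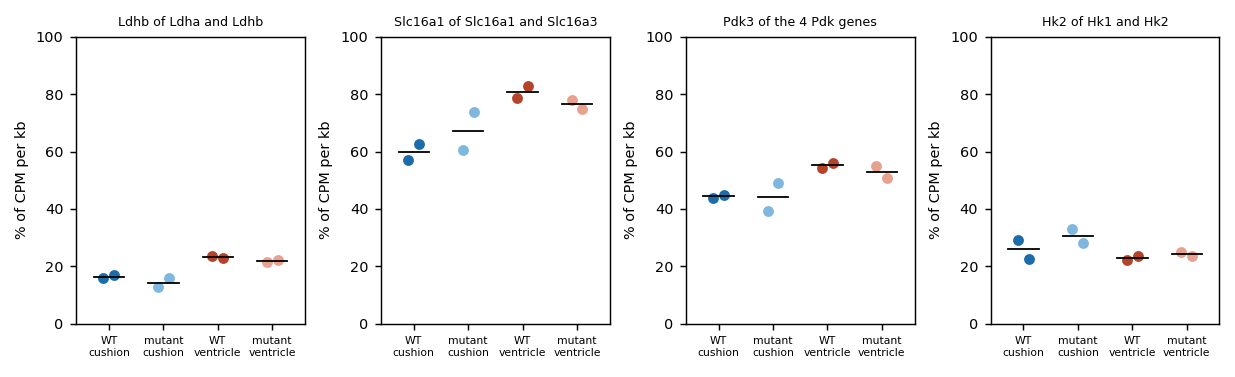
Share of 1 isozyme in the summed level per kilobase of its step (percent), with 1 point per library and a bar at the mean of the 2 libraries of a group. The points for Ldhb, Slc16a1 and Pdk3 are lower in cushions than in ventricles, with Ldhb at 12.7% to 17.0% against 21.6% to 23.5%, and those for Hk2 overlap.

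Of the 4 pentose phosphate enzymes Tkt and G6pdx were higher in wild type cushions, and the median log2 fold change of the 4 was 0.54 in wild type. Tkt, the transketolase that links the pathway back to glycolysis, was at 169.8 and 186.1 CPM in wild type cushions and at 52.9 and 48.5 CPM in wild type ventricles. In mutants it was at 118.6 and 93.6 CPM in cushions and 62.8 and 77.6 CPM in ventricles. The libraries fell into the order wild type cushion, mutant cushion, mutant ventricle, wild type ventricle with no overlap. Tkt was 3.51-fold higher in wild type cushions (log2 fold change 1.81 ± 0.17 SE, adjusted p = 5.49e-04), the largest value of the 38 genes, and remained called when any 1 library was left out. The value in mutants was 0.60 ± 0.16 SE on the log2 scale (adjusted p = 0.0538, 0.00672 with the block and 0.0377 in DESeq2).

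G6pdx, the glucose-phosphate dehydrogenase that starts the pathway and makes NADPH, was at 42.5 and 34.0 CPM against 24.3 and 21.1 CPM in wild type (0.75 ± 0.15 SE, adjusted p = 0.0107). In mutants it was at 35.5 and 35.4 CPM against 26.0 and 25.5 CPM (0.46 ± 0.15 SE, adjusted p = 0.0960, and 0.0170 with the block), and no tissue overlapped the other. The wild type call ended without wild type cushion replicate 1 (0.0806) or wild type ventricle replicate 2 (0.0905). Pgd, the next dehydrogenase of that branch, lay between 39.4 and 54.3 CPM in all libraries and was not called. Taldo1, the transaldolase, was at 61.2 and 66.3 CPM against 52.3 and 49.4 CPM in wild type and at 52.3 and 40.6 CPM against 53.0 and 70.4 CPM in mutants. Its log2 fold changes of 0.33 in wild type and -0.41 in mutants had opposite signs and did not pass (adjusted p = 0.207 and 0.189).

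Of the 7 hypoxia-induced genes 4 were called higher in cushions in both genotypes. The median log2 fold change of all 7 was 0.85 in wild type and 0.97 in mutants. Egln3, an oxygen-dependent hydroxylase that marks hypoxia-inducible factors for degradation and is itself induced by them, was at 40.9 and 27.7 CPM in wild type cushions and 13.7 and 11.0 CPM in wild type ventricles. In mutants it was at 38.8 and 32.6 CPM in cushions and 17.7 and 13.1 CPM in ventricles. Every cushion library stood above every ventricle library. It was 2.77-fold higher in wild type (log2 fold change 1.47 ± 0.24 SE, adjusted p = 0.00485) and 2.31-fold higher in mutants (1.21 ± 0.24 SE, adjusted p = 0.0172).

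P4ha1, a collagen prolyl hydroxylase subunit, was at 246.3 and 215.9 CPM against 145.7 and 146.7 CPM in wild type and at 297.1 and 292.3 CPM against 165.9 and 161.1 CPM in mutants. The gap between the tissues was many times the spread within a group in the mutants. Its log2 fold change was 0.66 ± 0.13 SE in wild type (adjusted p = 0.00864) and 0.85 ± 0.13 SE in mutants (adjusted p = 0.00584). Ndrg1, a gene induced by low oxygen and by differentiation, was at 22.6 and 24.9 CPM against 12.6 and 11.3 CPM in wild type and at 38.6 and 29.2 CPM against 17.1 and 17.2 CPM in mutants. Here too the tissues were apart, with log2 fold changes of 0.997 ± 0.17 SE (adjusted p = 0.00584) and 0.98 ± 0.17 SE (adjusted p = 0.0109). Ddit4, an inhibitor of mTOR signalling induced by stress, was at 22.4 and 19.9 CPM against 12.7 and 10.7 CPM in wild type and at 31.9 and 18.8 CPM against 14.1 and 11.7 CPM in mutants. Its log2 fold changes were 0.85 ± 0.25 SE (adjusted p = 0.0417) and 0.97 ± 0.25 SE (adjusted p = 0.0448).

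In wild type the calls of Egln3, P4ha1, Ndrg1 and Ddit4 ended without wild type ventricle replicate 2 (adjusted p = 0.0649, 0.0605, 0.0654 and 0.220). Those of P4ha1 (0.0719) and Ddit4 (0.148) also ended without wild type cushion replicate 1, and that of Ddit4 without wild type cushion replicate 2 (0.0962) or wild type ventricle replicate 1 (0.0881). In mutants P4ha1 stayed called when any 1 library was left out, while Ndrg1 and Egln3 were lost without mutant cushion replicate 1 (0.0901 and 0.125) or mutant ventricle replicate 2 (0.0560 and 0.0983). Ddit4 in mutants was lost without any library but mutant cushion replicate 2, with adjusted p from 0.0575 to 0.302. Ankrd37, an ankyrin repeat gene strongly induced by low oxygen, was at 7.61 and 6.93 CPM against 3.21 and 4.86 CPM in wild type and at 7.90 and 8.12 CPM against 3.07 and 4.96 CPM in mutants. All cushion libraries were above all ventricle libraries, and its log2 fold changes of 0.85 and 0.9999 passed in edgeR with the block only (adjusted p = 0.0652 and 0.0643, and 0.0117 and 0.00638 with it). In DESeq2 the value in mutants passed (adjusted p = 0.0311). Egln1, the main oxygen-sensing hydroxylase, was at 130.1 to 163.5 CPM in cushions and 136.5 to 162.5 CPM in ventricles. Bnip3, a mitophagy gene, was at 144.5 and 101.7 CPM against 119.1 and 163.2 CPM in wild type, where the tissues overlapped.

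**Figure D4:**
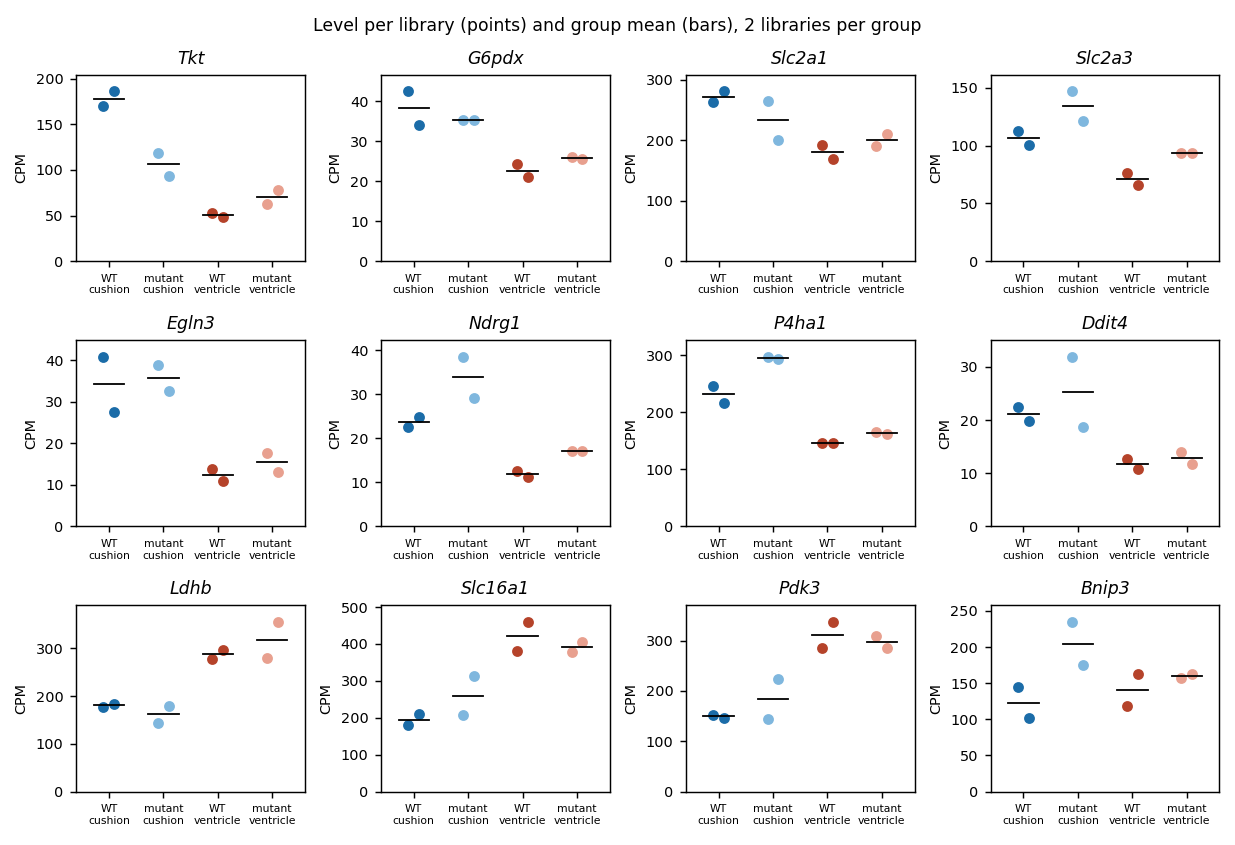
Level in CPM of 12 of the 38 genes in each library (points), with a bar at the mean of the 2 libraries of a group and axes that start at 0. Cushion points (blue) lie above ventricle points (red) for Tkt, G6pdx, Slc2a3, Egln3, Ndrg1, P4ha1 and Ddit4 and below them for Ldhb, Slc16a1 and Pdk3, and Bnip3 is highest in mutant cushions at 234.9 and 174.8 CPM.

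Other genes of these pathways gave a background to the listed ones. Of all genes tested 12.46% were called higher and 10.65% lower in wild type cushions, and 6.16% and 3.26% in mutant cushions. Among 28 other tested genes of glycolysis and pyruvate use, 3 were called higher and 6 lower in wild type cushions. Lower were subunits of the pyruvate dehydrogenase complex, with Dld at 181.3 and 212.8 CPM against 400.6 and 501.0 CPM (log2 fold change -1.19, adjusted p = 0.00308), Dlat at -1.07 (0.00334) and Pdhb at -1.15 (0.00366). Higher were Adpgk, an ADP-dependent glucokinase (0.68, adjusted p = 0.0135), Pfkfb4 (1.12, 0.0137) and Fbp1, which reached at most 0.638 CPM in any library. In mutants 0 were higher and 2 lower, Pdhb (-0.84, adjusted p = 0.0210) and Dlat (-0.64, 0.0396). Of 9 other genes of pentose phosphate and ribose use, 0 were higher and 2 lower in wild type, Prps2 (-1.65, adjusted p = 4.09e-04) and Prps1 (-0.96, 0.00645), which make the activated ribose of nucleotides. In mutants 0 were higher and 1 was lower, Prps2 (-0.69, adjusted p = 0.0156).

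Of 19 glycogen genes 1 was higher and 9 were lower in wild type cushions. Gyg, which primes glycogen chains, was at 893.0 and 797.1 CPM against 1725 and 1946 CPM (-1.12, adjusted p = 0.00834), Gbe1 was at -0.88 (0.0107) and Pgm1 at 0.45 (0.0416). In mutants 0 were higher and 4 lower, among them Pygm (-0.84, 0.0127), Gyg (-0.96, 0.0259) and Pygl (-0.55, 0.0323). Of 13 oxygen-sensing genes Hif1a was lower (575.5 and 504.1 CPM against 914.7 and 988.5 CPM, -0.82, adjusted p = 0.00754) and Arnt2 higher (0.85, 0.00900) in wild type cushions, and 0 passed in mutants, where Vhl (0.42, adjusted p = 0.0923) and Arnt2 (0.50, 0.0948) came closest. Of 37 other hypoxia-induced genes 11 were higher and 6 lower in wild type. Angptl4, a lipase inhibitor, was at 20.3 and 18.3 CPM against 3.90 and 3.80 CPM (2.32, adjusted p = 5.48e-04), Bhlhe40 at 0.84 (0.00792) and Adm at 1.73 (0.00864). Rragd was at -1.53 (0.00120), Vldlr at -0.97 (0.00778) and Tfrc at -0.82 (0.00997). In mutants 6 were higher and 1 lower, among them Angptl4 (1.18, adjusted p = 0.0109) and Adm (1.80, 0.0123), and Rragd (-0.87, 0.0183). With the block 41.4% of all genes were called in wild type and 23.9% in mutants. The calls among other glycolysis, pentose, glycogen, oxygen-sensing and hypoxia-induced genes then rose to 15, 4, 13, 6 and 20 in wild type. In mutants they rose to 11, 3, 9, 3 and 15.

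Cushions of the genotypes were compared to see how these genes differ in the tissue that the study is about. In edgeR 0 of the 38 genes passed, as did 0 of all genes (0% of those tested), and 7 of the 38 had an unadjusted p under 0.05. By p over all 14940 genes, the last of these 7, Pdk1, stood at rank 1680. The next of the 38, Pdk2, stood at rank 1908. No fewer than 1680 and fewer than 1908 of all genes were thus under 0.05 too. Klf2 itself, at a log2 fold change of -3.54, did not pass in this fit (edgeR adjusted p = 0.145, and 2.86e-05 with the block). A count of 0 in this fit therefore does not show that levels were alike. DESeq2 called 0 of the 38 and 25 of all genes. With the block 1 passed, Tkt, beside 0.863% of all genes (0.295% higher and 0.569% lower), and with the GC and length correction added it was again Tkt alone, beside 0.489% of all genes (0.181% higher and 0.308% lower). In mutant cushions 10 of the 38 genes had both libraries above wild type and 9 had both below, where 24.5% and 23.9% of all genes did.

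Tkt was at 118.6 and 93.6 CPM in mutant cushions and 169.8 and 186.1 CPM in wild type cushions, with no overlap. Its log2 fold change was -0.75 ± 0.16 SE (edgeR adjusted p = 0.435, and 0.0263 with the block), or 0.596 of the wild type level. With the block the call ended without wild type cushion replicate 1 (0.0737), wild type cushion replicate 2 (0.294), mutant cushion replicate 2 (0.0760), wild type ventricle replicate 1 (0.0518) or wild type ventricle replicate 2 (0.0736). All 4 pentose phosphate enzymes lay below 0, with a median of -0.28 beside -0.01 for all genes (-0.48 without mutant cushion replicate 1). Taldo1 was at 52.3 and 40.6 CPM in mutants and 61.2 and 66.3 CPM in wild type cushions (-0.46 ± 0.18 SE, adjusted p = 0.435), and G6pdx and Pgd were at -0.11 each. Pdk2 was at 11.0 and 6.60 CPM in mutants and 12.3 and 13.5 CPM in wild type (-0.55 ± 0.25 SE, adjusted p = 0.444).

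In mutant cushions all 7 hypoxia-induced genes lay above 0 (median log2 value 0.26, and 0.45 with the GC and length correction and the block), and 0 passed. Bnip3 was at 234.9 and 174.8 CPM in mutants and 144.5 and 101.7 CPM in wild type (0.74 ± 0.23 SE, adjusted p = 0.435, and 0.102 with the block), and 62.5% of its transcript windows occur in other genes. Ndrg1 was at 38.6 and 29.2 CPM against 22.6 and 24.9 CPM (0.51 ± 0.17 SE, adjusted p = 0.435, and 0.0882 with the block). P4ha1 was at 297.1 and 292.3 CPM against 246.3 and 215.9 CPM (0.35 ± 0.12 SE, adjusted p = 0.435, and 0.0961 with the block). In all 3 the mutant libraries were above the wild type ones. Egln3, in contrast, overlapped between genotypes (0.06 ± 0.23 SE).

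The glycolytic enzymes were split in mutant cushions, with 7 above and 11 below 0 and a median of -0.12, which was -0.19 and -0.019 when wild type cushion replicate 1 or 2 was left out, -0.037 when mutant cushion replicate 1 was, and 0.098 with the GC and length correction and the block. Their sum was 6088 and 6012 CPM in mutants and 6139 and 6267 CPM in wild type cushions. Erythroid markers were above 0 in 9 of 10 cases (966.3 to 3746 CPM in mutant and 821.6 to 1911 CPM in wild type cushions), all 5 epicardial markers were above 0 (229.8 to 297.4 CPM against 163.2 to 195.7 CPM), and 9 of 10 cushion mesenchyme markers were below 0 (8233 to 14710 CPM against 9065 to 18610 CPM), with 0 called in each list (with the block Tbx18 of the epicardial and Col1a1 of the mesenchyme list passed, as did Afp, a liver marker). Of the cardiomyocyte markers 10 of 12 were below 0 (35860 to 36740 CPM against 32450 to 49570 CPM) and of the leukocyte markers 5 of 6 above 0 (129.4 to 186.7 CPM against 136.8 to 137.0 CPM), with 0 called. The cardiomyocyte sum includes Ttn, at 20220 CPM in mutant cushion replicate 1 and 14260 CPM in replicate 2. Myl2 (2074 and 3965 CPM) and Nppa (142.2 and 754.0 CPM) were higher in mutant cushion replicate 2, and Myh7 (4678 and 3725 CPM) was lower. The 2 mutant cushion libraries were thus less alike in these markers than the sums show. The part of the cell types in these values was not tested. Among the other lists 0 genes passed. Prps2 was at 96.3 and 100.2 CPM in mutants and 60.4 and 58.6 CPM in wild type cushions (0.72, adjusted p = 0.421, and 0.00913 with the block), Ero1l, a hypoxia-induced oxidase of the endoplasmic reticulum, was at 0.44 and Angptl4 at -0.67 (adjusted p = 0.435 for both).

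**Figure D5:**
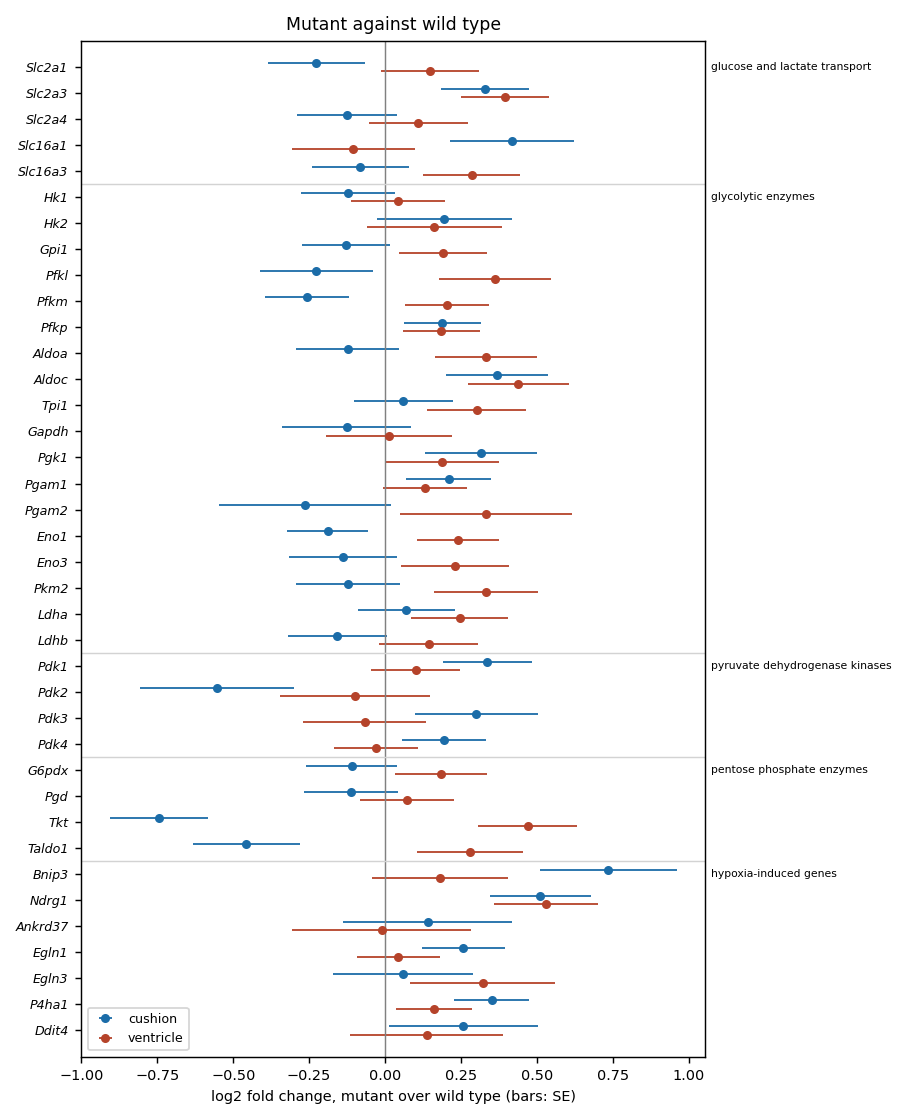
Log2 fold change of mutant over wild type for the 38 genes by role, in cushion (blue) and ventricle (red), with bars of 1 SE and 2 libraries per group. In edgeR 0 of the 38 genes passed an adjusted p of 0.05 in either tissue, and Tkt lies at -0.75 in cushion and 0.47 in ventricle.

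In ventricles the mutants stood above wild type for most of the genes, by small amounts. Of the 38 genes 33 were above 0 and 5 below, with a median log2 fold change of 0.18 beside -0.01 for all genes. That median was 0.088 without mutant ventricle replicate 2 and 0.28 without mutant ventricle replicate 1. In edgeR 0 passed, as did 0 of all genes (0% of those tested), and 4 of the 38 had an unadjusted p under 0.05. By p over all 14940 genes, the last of these 4, Aldoc, stood at rank 131. The next of the 38, Aldoa, stood at rank 716, so fewer than 716 of all genes were under 0.05. Here too Klf2 did not pass in this fit (-3.93, edgeR adjusted p = 0.269, and 4.56e-05 with the block). With the block and in DESeq2 0 of the 38 passed, where 0.00669% of all genes passed with the block. In 16 of the 38 both mutant libraries lay above both wild type libraries and in 0 below, where 13.1% and 14.6% of all genes did. All 18 glycolytic enzymes were above 0 (median 0.22), with Gapdh at -0.01 with the block. The median was 0.098 without mutant ventricle replicate 2, 0.33 without mutant ventricle replicate 1 and 0.14 with the GC and length correction and the block. Their sum was 6990 and 8694 CPM in mutants and 6477 and 6614 CPM in wild type ventricles, the second mutant library being the one described above.

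Among the genes above 0, the smallest unadjusted p belonged to Ndrg1, at 17.1 and 17.2 CPM in mutant and 12.6 and 11.3 CPM in wild type ventricles (0.53 ± 0.17 SE), Tkt, at 62.8 and 77.6 CPM against 52.9 and 48.5 CPM (0.47 ± 0.16 SE), and Slc2a3, at 93.3 and 93.3 CPM against 76.4 and 65.5 CPM (0.39 ± 0.14 SE). Each had an adjusted p of 0.998 in edgeR, and in each the groups did not overlap. Below 0 were Slc16a1 (-0.10), Pdk2 (-0.10), Pdk3 (-0.07), Pdk4 (-0.03) and Ankrd37 (-0.01), whose libraries overlapped. The 10 erythroid and 8 endothelial and endocardial markers were all above 0 in mutant ventricles too (2768 to 8124 against 2453 to 6951 CPM and 2143 to 2325 against 1778 to 1988 CPM), as were the 6 leukocyte markers (130.9 to 163.2 against 127.9 to 136.4 CPM), with 0 called. Cardiomyocyte markers summed to 49260 to 97280 CPM in mutant and 47840 to 106900 CPM in wild type ventricles. Among these markers, mutant ventricle replicate 2 was the highest of the 8 libraries for Tnnt2, Tnni3, Myl2, Myl3, Actc1 and Nppa. It was not the highest for Myh6, Myh7, Actn2, Myl7, Ryr2 or Ttn (10600 CPM). The part of the cell types in these values was not tested.

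Whether the genotypes differed by tissue was tested as the cushion effect minus the ventricle effect. In edgeR 0 of the 38 genes passed (0% of all genes), with or without the block. Without the block 3 of the 38 had an unadjusted p under 0.05. By p over all 14940 genes, the last of these 3, Pfkm, stood at rank 1578. The next of the 38, Eno1, stood at rank 1802. No fewer than 1578 and fewer than 1802 of all genes were thus under 0.05 too. Tkt was at -1.22 ± 0.23 SE (adjusted p = 0.414, and 0.0852 with the block), Taldo1 at -0.74 ± 0.25 SE (0.414, and 0.0942 with the block) and Pfkm at -0.46 ± 0.20 SE (0.414, and 0.119 with the block). In 6 of the 38 genes the mutant libraries were below wild type in cushions and above it in ventricles without overlap, as in 5.21% of all genes, and in 0 the other way round, as in 7.30% of all genes. The median difference over the 38 genes was -0.18, and -0.017 with the GC and length correction and the block. The -1.22 of Tkt is also the drop of its tissue difference from 1.81 in wild type to 0.60 in mutants, and that drop did not pass. No tissue difference that passed in 1 genotype was shown to differ between the genotypes by this test.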

How the data were processed

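Total RNA was read from libraries made with a stranded kit after ribosomal RNA removal, per the labels' protocols. The submitters' processing notes name Bowtie 0.12.7 and build mm9, and how reads were counted, with which annotation and strand, is not given in the sources used here. Values deposited by the authors are raw counts per gene row, and 0 columns lacked a sample. The values of the rows used were not altered. Over all rows the libraries held between 26562828 and 37694738 counts, and between 18955733 and 26579215 with 1 row kept per symbol. Because strand use is unknown, overlapping antisense genes are uncertain. The 38 genes, their roles and the other lists were chosen with earlier results of these data known.

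edgeR 4.0.16 (R 4.3.3) was run on all 14940 symbols: TMM scaling, robust quasi-likelihood fit of 4 groups over 8 libraries, two-sided tests, Benjamini-Hochberg adjustment over all symbols, threshold 0.05. The SE is the log2 fold change over the root of F, and both genotypes' tissue contrasts share this spread estimate. Of the counts left with 1 row per symbol, a filter by expression kept 99.97%. Deviations of replicate 1 from the group mean correlated between all pairs of groups (r across genes 0.341 to 0.522), a pairing seen in the data that the labels do not state, and a fit with the replicate number as a block is given where it changes a call. The 2 libraries of a group differed beyond sampling noise (chi-square per degree of freedom 44.1 to 113.5). Transcript lengths, GC content and shared windows of 50 bases came from GENCODE vM21 (98.2% of symbols matched). Values are named for genes called in both genotypes, the largest fold changes per role, the 3 smallest p in each direction per genotype contrast and isozyme pairs, and from the other lists up to 3 passing genes per direction, or 2 where none passed, of which some are not reported here. Alternatives were DESeq2 1.42.0, other size factors, no filter, summed rows, the contrast's libraries alone, a correction for GC content and length, and leaving out each library. The scripts were tested on simulated data drawn without a pairing of replicates, so that test does not cover the pairing seen here.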

Additional observations from a re-analysis of the deposited data

Results flagged for a closer look

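For 6 of the 38 genes both mutant libraries lay on 1 side of both wild type libraries in cushions and on the opposite side in ventricles. All 6 were lower in mutant cushions and higher in mutant ventricles, as were 5.21% of all genes, and 0 of the 38 were the other way round, as were 7.30% of all genes. The cushion effect was lower than the ventricle effect in each, by -1.22 on the log2 scale for Tkt, -0.74 for Taldo1, -0.46 for Pfkm, -0.46 for Pkm2, -0.46 for Aldoa and -0.43 for Eno1. None passed the test of the difference in edgeR (adjusted p from 0.414 to 0.452 over the 6, and from 0.0852 to 0.194 with the replicate block). Under the other settings 0 values of these 6 genes changed sign. Over all 38 genes the median of this difference depended on the scaling. It was -0.18 in the main fit and -0.017 with the GC and length correction and the block.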

How the results depend on the processing

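The 11 calls in wild type all held in DESeq2 and with the GC and length correction and the block, as did the 5 in mutants. The replicate block, which pairs libraries by number, raised the genes called to 18 in wild type, 20 in mutants and 13 in both, and to 1 in the cushion genotype contrast. With the GC and length correction and the block these were 31 (9 higher and 22 lower, beside 16.2% and 25.0% of all genes), 28 (8 and 20, beside 12.3% and 19.3%), 26 (8 and 18, beside 10.1% and 15.1% of all genes) and 1 (Tkt at -0.57, adjusted p = 0.0382). DESeq2 called 12 in mutants (12.1% of all genes). Leaving out 1 library at a time gave 1 to 13 calls in wild type, 1 to 8 in mutants, 0 to 8 in both and 0 to 0 in the genotype contrasts and their difference. The 0 for both came without wild type ventricle replicate 2. Slc16a3 changed sign in wild type with the correction (-0.081 instead of 0.39). In mutant against wild type ventricles, Slc16a1 was at 0.028 with the correction, and leaving out 1 library gave -0.21 to 0.039 for Slc16a1, -0.25 to 0.10 for Pdk2 and -0.16 to 0.060 for Pdk3, above 0 without wild type ventricle replicate 2 (Slc16a1, Pdk3), or wild type ventricle replicate 1 or mutant ventricle replicate 2 (Pdk2). Ddit4 in mutants was not called with summed rows (0.0538) or the contrast's own libraries (0.112). The causes were not tested. The lowest count was 60 reads, for Ankrd37, which also had the largest SE of the 38 genes in the wild type tissue comparison (0.29 on the log2 scale).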
